A study of Pyrus pyrifolia with 2 samples.

Results

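Of 42341 annotated pear genes, each with 1 annotated transcript, 366 have 2 to 19 exons and introns that add up to 10000 bases or more. These genes with long introns were found by a rule on structure: the total intron length is the span of the annotated transcript, end minus start plus 1, less its coding length. The rule uses no expression value. They are set against the 20852 annotated genes with 2 to 19 exons and a total intron length under 2000 bases, weighted so that each exon number carries the weight it has among the 366.

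Introns are the stretches of a primary transcript that the spliceosome removes while the exons on either side are joined. Plant introns are mostly short, and a long one often holds inserted transposable elements. Long introns must be transcribed in full and spliced across a large distance, and gene models with long introns are hard to predict from sequence, since a predicted model can also join exons of separate genes.

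RNA came from wounded tissue of the pear Pyrus pyrifolia, with the cultivar given as Nakai."Shuijing". Wounds received 30 μL of sterilized water in the control, or 30 μL of a suspension of Wickerhamomyces anomalus, a yeast used against fruit decay, and the treatment lasted 3 days at 28 °C and 95% relative humidity. The study asks which pear genes respond to the yeast. Each treatment has 1 library, so no difference between them has a replicate check, and the ratios below, given without p-values, set 1 library beside another. In bulk tissue, fewer cells of a type and less RNA per cell cannot be told apart. Gene names do not accompany the identifiers, so tissue markers were not applied and no gene's product is stated.

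Expression is given as FPKM, which relates the sequenced fragments to transcript length and library size. A transcript with a mean of 1 FPKM or more across the libraries is called measured. A locus is the set of annotated and assembled transcripts that share a gene identifier, where assembled transcripts are those built from reads. Its summed FPKM is the sum over those transcripts. Positions are those of the authors' tables, whose genome build is unknown here. Where a pair of FPKM values is given, the water-treated library comes first. The scale rests on an estimated 19400000 read pairs with water and 16800000 with yeast. At the median coding length of the long-intron genes, 3 read pairs correspond to 0.0975 and 0.113 FPKM.

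The long-intron genes vary widely in structure. Total intron length runs from 10014 to 65437 bases with a median of 17011, with quartiles at 12263 and 25988. They have a median of 7 exons and a median coding length of 1589 bases, against an exon-weighted median of 1368 for the short-intron genes. The mean length of a single intron has a median of 3181 bases, against 176 in the short-intron genes. At the threshold, the 3 genes just outside have total intron lengths of 9959, 9970 and 9998 bases and the 3 just inside 10014, 10023 and 10058. Of these 6, the gene at 9959 bases was at 7.18 FPKM with water and 6.34 with yeast, the gene at 10023 bases was at 4.48 and 4.47, and the other 4 had at most 0.266 FPKM as annotated in either library.

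The genes occur on all 17 chromosomes and on unplaced scaffolds. Their share of annotated genes is 0.864% over the genome, and it ranges from 0.315% on chromosome 1 (4 of 1270) to 1.30% on chromosome 11 (29 of 2239). Unplaced scaffolds hold 81 of them, 22.1% of the long-intron genes against 17.1% of all annotated genes. In 9 cases a long-intron gene is followed by another as the next annotated gene. The number expected from their share of annotated genes was not calculated.

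**Figure D1:**
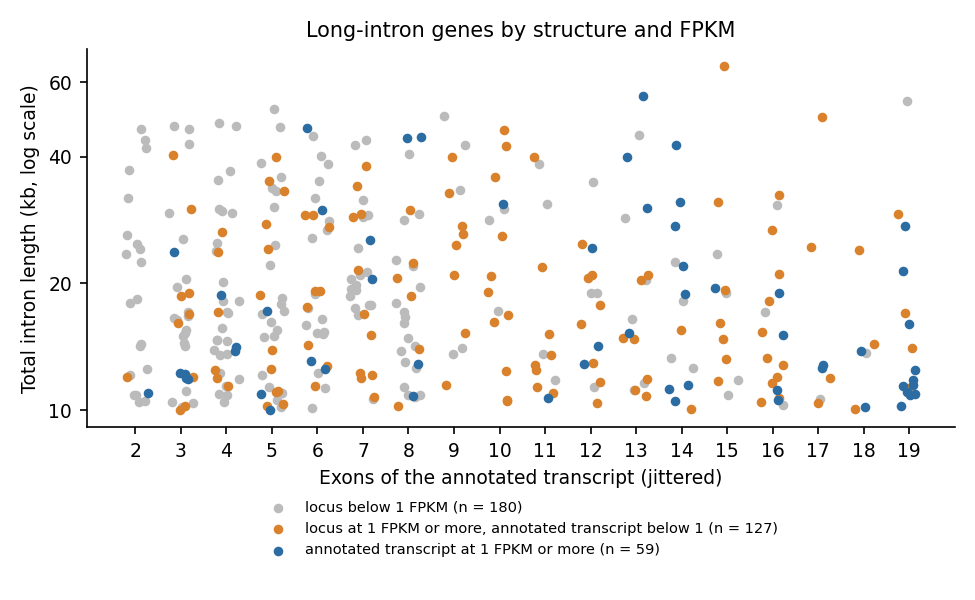
Total intron length (kb, log scale) against the exon number of the annotated transcript for the 366 long-intron genes, 1 point per gene, with exon numbers jittered. The 59 genes measured as annotated (blue) lie mostly at high exon numbers, and 127 further genes (orange) reach 1 FPKM when all transcripts of the locus are summed. The remaining genes are grey.

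As annotated, most of these genes gave little signal. The annotated transcript was measured for 59 of 366 genes (16.1%), against an exon-weighted 33.5% of the short-intron genes. Its median FPKM was 0.0610 against 0.210, but this order depends on the comparison: against genes with under 1000 bases of intron it was 0.0610 against 0.0496, and 16.1% against 27.6% were measured. With water 193 of the genes were above 0, and with yeast 207, or 52.7% and 56.6% against 64.6% and 64.7%. Both libraries listed 145 at 0, and 37 rested on more than 0 and at most 3 read pairs in both libraries together. The difference was present in both libraries: 16.1% against 33.5% were at 1 FPKM or more with water, and 16.4% against 33.3% with yeast.

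The locus sum gave a different picture. With all transcripts of the locus summed, 186 of the 366 genes (50.8%) reached a mean of 1 FPKM, against 53.8% of the short-intron genes, and the median was 1.42 FPKM against 1.77. Of the 307 genes below 1 FPKM as annotated, 127 had a locus at 1 FPKM or more. Among the 145 listed at 0 in both libraries, 38 had signal at the locus, and all 38 of these loci reached 1 FPKM. All 38 hold an assembled transcript, built from these same reads, so signal at these loci was given by construction. The remaining 107 loci were listed at 0 in both libraries.

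The outcome differed by exon number. Among genes with 2 exons, 1 of 22 was measured as annotated (4.55% against 26.7%) and 2 as a locus (9.09% against 34.4%). With 5 to 8 exons, 13 of 128 were measured as annotated (10.2% against 40.7%) and 51 as a locus (39.8% against 59.6%). With 9 to 14 exons, 17 of 87 were measured as annotated (19.5% against 40.2%), while 61 loci were (70.1% against 65.1%). With 15 to 19 exons the order was the other way round, with 20 of 59 annotated transcripts measured (33.9% against 10.8%) and 49 loci (83.1% against 40.5%), but only 33 short-intron genes have so many exons. Within the long-intron genes, Spearman's rho across the 366 genes between exon number and summed FPKM was 0.47, and that between total intron length and summed FPKM was -0.16. The genes share both libraries, and these values are descriptions.

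Long single introns went with low signal. Where the mean intron was under 1000 bases, 38 of 46 loci were measured (82.6%), and the median summed FPKM was 12.9. From 2000 to under 5000 bases it was 62 of 132 (47.0%) with a median of 0.627, and at 10000 bases or more it was 5 of 37 (13.5%) with a median of 0. The median exon number fell over the same classes from 16 to 7 to 2, so the length of an intron and the number of exons cannot be told apart here.

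**Figure D2:**
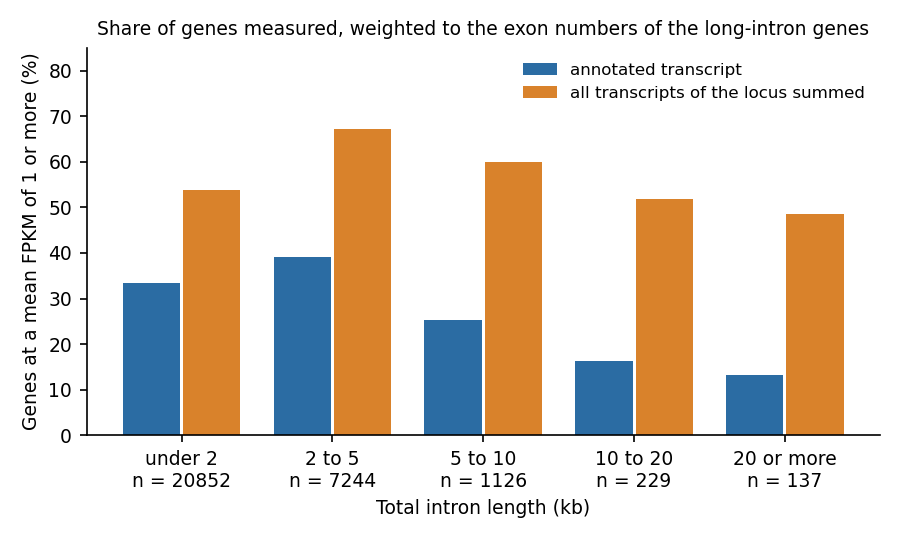
Share of genes (%) at a mean FPKM of 1 or more by class of total intron length (kb), each class weighted to the exon numbers of the long-intron genes, for the annotated transcript (blue) and the summed locus (orange). Both shares are highest at 2 to 5 kb, at 39.1% and 67.3%, and at 20 kb or more they are 13.3% and 48.4%.

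Across classes of total intron length, the share measured did not run in 1 direction. Weighted to the same exon numbers, 33.5% of annotated transcripts were measured under 2000 bases, 39.1% from 2000 to 4999, 25.3% from 5000 to 9999, 16.2% from 10000 to 19999 and 13.3% at 20000 or more. The corresponding shares of loci were 53.8%, 67.3%, 59.97%, 51.8% and 48.4%.

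Assembled isoforms, which are transcripts built from reads at the same gene identifier, were frequent at the long-intron genes. At least 1 was present for 162 genes (44.3%), against an exon-weighted 27.1% of the short-intron genes. At loci with a single annotated transcript the shares were 42.0% and 25.2%. The mean was 0.839 per gene against 0.346, which counts every isoform of a locus. Loci that merge several annotated genes are included in that mean, and 1 of them holds 31 isoforms. The share of genes with an isoform was close on both sides of 10000 bases of total intron length. Weighted to the same exon numbers, it was 37.3% from 2000 to under 5000 bases and 43.3% from 5000 to under 10000. It was 44.3% from 10000 to under 20000 and 44.2% at 20000 or more. With 2 exons the long-intron share was the lower, at 4.55% against 12.0%, and in the other exon groups it was the higher. Among the 204 long-intron genes without an assembled isoform, 25 were measured (12.3% against 37.3%). Among the 162 genes with one, 161 loci were measured (99.4% against 99.8%), and the median summed FPKM was 10.9 against 14.03. An assembled isoform is built from these same reads, so a locus with one has signal by construction. Its share measured was therefore nearly fixed in advance. The transcript list is shared by both libraries, so it offers no comparison of treatments.

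These isoforms rarely reached from end to end of the annotated gene. At the 148 long-intron genes with an assembled isoform and no other annotated gene at the locus, 245 isoforms were found, all on the strand of the gene. Only 29 of them (11.8%) spanned the whole annotated transcript, against 3760 of 4341 (86.6%, not weighted on exon number) at the short-intron genes. Cover is a share of the annotated span, which the rule makes long, with a median of 18845 bases against an exon-weighted 2779. An isoform of a given span thus covers less of a long-intron gene, so part of this contrast follows from the rule. The median isoform covered 20.5% of the span, and 193 of 245 covered under 50%, against 100% and 142 of 4341 at the short-intron genes. Of the 245, 90 reached the annotated 5′ end alone, 75 the 3′ end alone and 51 neither end. They were not small fragments: the median isoform had 7 exons and 1695 bases, and only 4 had a single exon. Their total intron length had a median of 2565 bases, and 43 (17.6%) had introns of 10000 bases or more in all.

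Counted by gene, 27 of the 148 (18.2%) had an isoform that spanned the annotated transcript, against an exon-weighted 90.1% of short-intron genes. The isoforms of a gene jointly covered a median of 25.1% of its span. At 47 of the 148 genes, an isoform with at least as many exons as the annotated transcript overlapped less than 50% of its span. Isoforms can run past the annotated ends and exon positions are unknown, so some of these exons may lie outside the span. At the short-intron genes such an isoform was present for 31 of 3655. Where the locus was measured, the annotated transcript took a median of 1.18% of the summed FPKM, close to the 0.753% at short-intron genes, so the small share of the annotated transcript beside an assembled one is common to both.

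**Figure D3:**
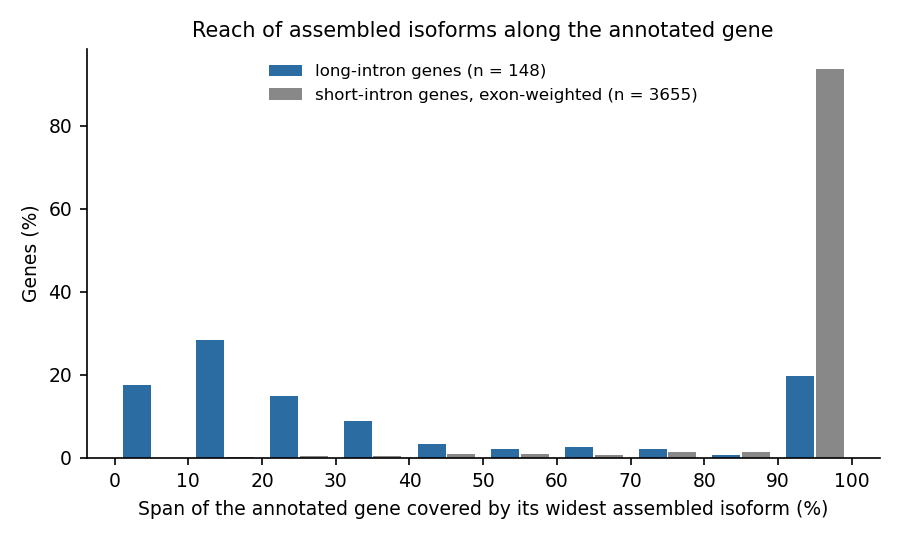
Share of the annotated gene's span (%) covered by its widest assembled isoform, for 148 long-intron genes (blue) and 3655 short-intron genes weighted on exon number (grey), in classes of 10 percentage points. The long-intron genes are mostly below 40%, and 93.7% of the short-intron genes are at 90% or more. The span is long by the rule that chose the long-intron genes, and part of the contrast follows from that.

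The longest totals show this arrangement. On chromosome 5 (10766661 to 10835457, plus strand), a gene of 15 exons has 65437 bases of intron. Its annotated transcript was at 0.0429 FPKM with water and listed at 0 with yeast. An assembled isoform of 10 exons, over the 3′ end (10828532 to 10835541) and 10.1% of the span, was at 5.03 and 6.65 FPKM, so nearly the whole signal came from there. On an unplaced scaffold (scaffold914.0, 98794 to 157072, minus strand), a gene of 13 exons and 55531 bases of intron was at 1.12 and 1.28 FPKM. An isoform of 4 exons at its 3′ end was at 135.2 FPKM with water and 131.4 with yeast, and another of 5 exons near the 5′ end was at 4.39 and 5.01. The pieces at the ends of this annotated gene differed widely in level. On chromosome 10 (18576857 to 18628654, minus strand), a gene of 17 exons and 49698 bases of intron was listed at 0 in both libraries. A pair of assembled isoforms of 18 exons each (18623377 to 18629022) overlaps 10.2% of its span and runs past its 5′ end. The pair was at 2.83 and 3.38 FPKM with water and 3.94 and 2.93 with yeast. The other 3 of the 6 longest have no assembled isoform. On scaffold835.0, a gene of 19 exons and 54218 bases of intron was at 0.0907 and 0.0701 FPKM, and genes on scaffold996.0 (51807 bases) and chromosome 17 (49903 bases) were listed at 0 in both libraries.

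At the genes with the most assembled isoforms, the locus holds several pieces, not all of which overlap the long-intron gene. On chromosome 6 (5707273 to 5741025, plus strand), a gene of 14 exons and 31188 bases of intron was at 6.17 FPKM with water and 6.27 with yeast as annotated. It has 9 assembled isoforms, and the widest covers 65.6% of the span. The locus summed to 62.9 and 61.5 FPKM, and in the authors' gene table, which divides by a single length per locus, it was at 15.02 and 14.8. A further 2 genes on chromosome 6 and 1 on chromosome 8 have 6 isoforms each, with annotated transcripts between 0 and 0.359 FPKM and summed loci between 8.72 and 38.9. The locus with the most, on chromosome 12, has 31 assembled isoforms but merges 4 annotated genes. The long-intron gene there, of 5 exons, was at 0.124 and 0.154 FPKM. All transcripts of the merged locus, some of them outside this gene, summed to 64.6 and 69.4. In the gene table the merged locus was at 3.69 and 4.15 FPKM. In all, 14 of the 366 genes lie in loci that merge several annotated genes (3.83% against 2.04%).

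**Figure D4:**
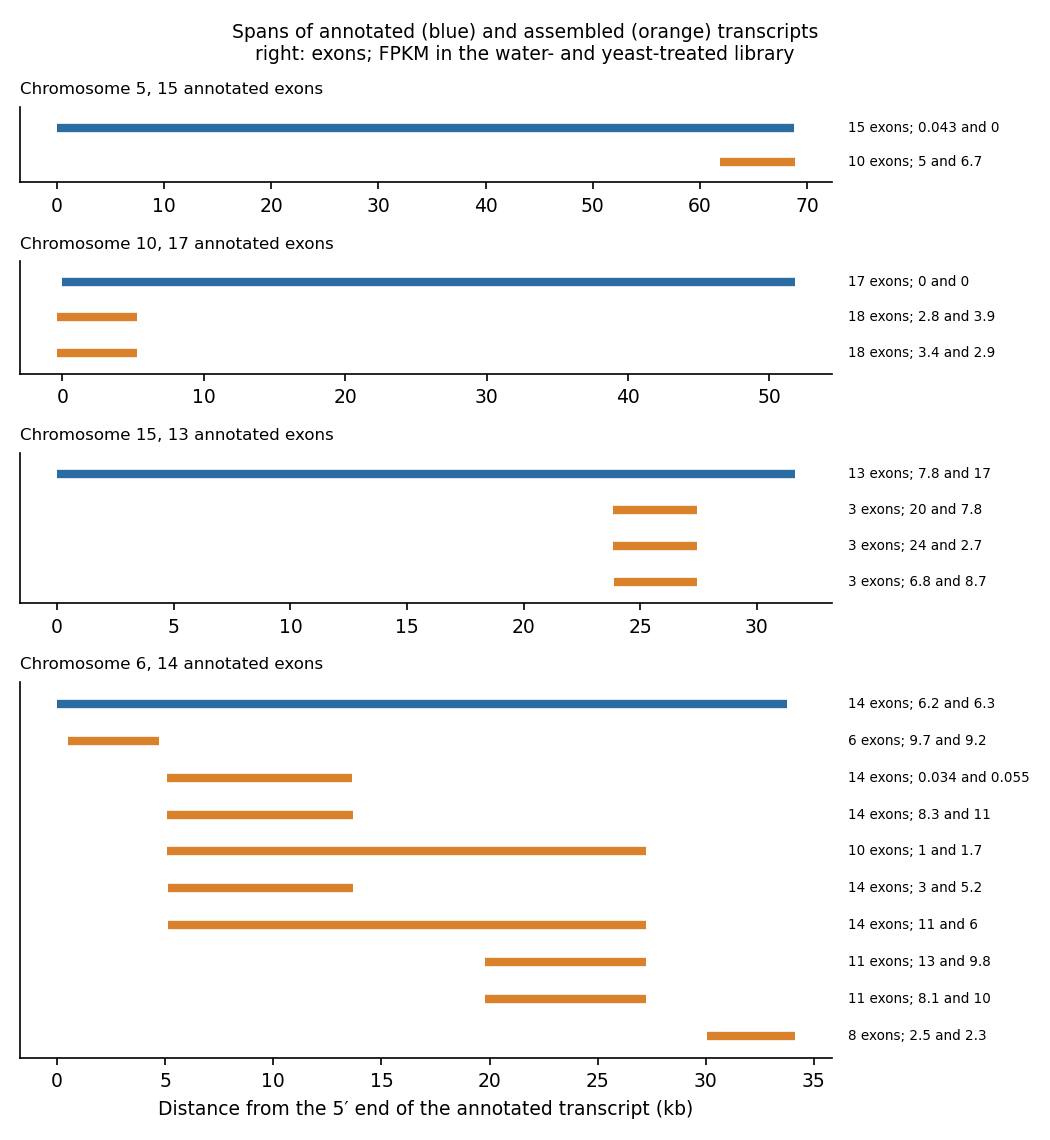
Spans of the annotated transcript (blue) and assembled isoforms (orange) at 4 long-intron genes, drawn from the 5′ end of the annotated transcript (kb, introns included), with exon number and FPKM in the water- and yeast-treated library at the right. At the genes on chromosomes 5 and 10 the isoforms lie at 1 end, covering 10.1% and 10.2% of the annotated span, on chromosome 15 all 3 lie inside it, and on chromosome 6 they lie as pieces along it.

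Not every long-intron gene was weak. As annotated, 27 were at a mean of 5 FPKM or more, and 19 at 10 or more. The most abundant, of 14 exons on chromosome 15 (26927535 to 26940144, plus strand), has 11482 bases of intron and was at 111.7 FPKM with water and 124.3 with yeast, 1.11-fold (95% interval 1.05 to 1.18). Such intervals are exact, are conditional on the sum of the read pairs, and cover counting error only. Next came a gene of 19 exons on chromosome 3 (13884247 to 13897381, minus strand) at 83.9 and 85.7 FPKM. Neither has an assembled isoform. On chromosome 2 (19729246 to 19759750, minus strand), a gene of 14 exons with 27439 bases of intron was at 43.1 and 40.1 FPKM, and the summed locus at 67.0 and 62.1. On chromosome 13 (14384840 to 14398728, minus strand), a gene of 6 exons was at 34.0 and 31.8 FPKM. On chromosome 11 (16380985 to 16393240, plus strand), a gene of 14 exons was at 17.1 and 16.9. The levels of these genes differed by far more between genes than between libraries.

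A set of 4 strongly expressed genes shares its structure: 19 exons and a coding length of 1893 bases in each. Their total intron lengths are also close, at 10904 bases on chromosome 2 (4301007 to 4313803), 10945 on scaffold1317.0, 11451 on scaffold542.0 and 11833 on scaffold459.0. In that order they were at 19.3, 43.2, 13.8 and 9.27 FPKM with water and at 19.2, 45.2, 15.999 and 11.9 with yeast. The largest of these ratios, on scaffold459.0, was 1.28-fold (1.11 to 1.49). None has an assembled isoform. Whether they are copies of 1 gene was not examined by sequence, and reads could be divided among near-identical copies, so their separate levels are uncertain.

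Structure was also matched over all long-intron genes with 8 or more exons. Of 175, 94 (53.7%) have another annotated gene with the same exon number and coding length, against 53.1% of the short-intron genes, so the share was close to that background. For 82 of the 94, none of the matching genes has 10000 bases of intron, and the median over genes of their median total intron length was 2721 bases. The long-intron gene was below the median of its matches in 59 cases and above it in 30 as annotated, and in 51 and 42 cases as a summed locus. On chromosome 10 (18111473 to 18156510), a gene of 14 exons with 42647 bases of intron was at 15.5 and 15.4 FPKM, and a gene of the same exon number and coding length on chromosome 12, with 2731 bases of intron, at 4.79 and 4.33. On chromosome 2, the gene with 27439 bases of intron described above was at 43.1 and 40.1 FPKM, and a gene of matching structure on chromosome 5, with 2264 bases of intron, at 34.5 and 42.3. Both examples are among the 30 cases above their matches, the less frequent direction, and with yeast the latter was below its match. Among the 59 below, a gene of 8 exons on chromosome 17 (6052368 to 6094430), with 40659 bases of intron, was at 0 and 0.0235 FPKM. Its match on chromosome 14, with 4104 bases of intron, was at 8.21 and 8.11.

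Other loci lie within the spans of these genes. In all, 172 loci are enclosed in 110 of the 366 genes (30.1%), up to 6 in a gene, and none of them holds an annotated gene. No such count was made for other genes, so the share has no background here. The rule also gives the long-intron genes more room, with a median span of 18845 bases against an exon-weighted 2779. Of the 172, 82 are on the opposite strand, 55 on the same strand and 35 have no strand. They have a median span of 1160 bases, 65 have a single exon, and 159 were at a mean of 1 FPKM or more. All consist of transcripts built from these same reads, so signal there was given by construction. In 105 genes an enclosed locus was above the gene's own annotated transcript, and in 62 above the summed locus, again without a count at other genes. The highest, of 3 exons on chromosome 2 (19744953 to 19746842), lies on the opposite strand inside the gene with 27439 bases of intron and was at 464.7 FPKM with water and 454.3 with yeast. On chromosome 4, a locus of 8 exons (6096711 to 6100710) was at 315.9 and 363.2 FPKM inside a gene whose annotated transcript had a mean of 0.0317 and whose summed locus had a mean of 97.7. Of the 159 enclosed loci at 1 FPKM or more, 0 reached a log2 ratio of yeast over water of 1, with 1 FPKM added to each value, and 2 reached -1, against 1.19% and 1.35% of all 3624 measured loci without an annotated gene. On plain FPKM ratios, 7 were at least 2-fold higher with yeast and 9 at least 2-fold lower, against 5.10% and 4.03%. The strand setting is unknown here and the transcript tables give no exon positions, so whether such a locus lies within an intron was not analysed here.

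The yeast and water libraries were close for the long-intron genes. Ratios are log2((FPKM yeast + 1)/(FPKM water + 1)), a scale that shrinks the differences of weakly expressed genes. Over the 59 measured annotated transcripts the median was 0.02, against -0.01 in the short-intron genes and -0.02 over all 13622 measured annotated transcripts. Of the 59, 34 were above 0 and 25 below, and 51 (86.4%) lay within 0.5 of 0, against 91.7%. A log2 ratio of at least 1 was reached by 4 of the 59 and one of at most -1 by 2. Over all measured annotated transcripts, 1.64% were as high and 1.56% as low, together 3.20%, against 10.2% of the 59. The share rests on 6 genes. On plain FPKM ratios, without the added 1, 5 of the 59 were at least 2-fold higher with yeast and 3 at least 2-fold lower, against 2.76% and 2.50% of all measured annotated transcripts.

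None of the 6 was past 2-fold as a locus. Pbr034033, of 3 exons with 23691 bases of intron on scaffold630.0 (188179 to 213864, plus strand), was at 0.308 FPKM with water and 5.09 FPKM with yeast, a 16.5-fold ratio (9.13 to 32.3) from about 12 and 170 read pairs. An isoform of 2 exons at its 3′ end was at 4.81 and 0.0611 FPKM, and the locus summed to 14.4 and 14.1. Pbr003862, of 14 exons on chromosome 3 (26150277 to 26165306, minus strand), had 0.494 FPKM with water and 4.55 with yeast, or 9.22-fold (6.55 to 13.5). An isoform of 8 exons carried 99.4% of the locus with water and 94.4% with yeast, and the locus was at 86.4 and 81.9 FPKM. At both loci, 1 transcript was higher and another lower with yeast, and the sums were close.

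The lowest ratio belonged to Pbr032033, of 19 exons on scaffold570.0 (272317 to 286416, minus strand), at 15.04 FPKM, about 769 read pairs, with water and listed at 0 with yeast. An assembled isoform with the same exon number, 2704 bases long against 2640, was at 6.68 and 22.4 FPKM, and the locus at 21.7 and 22.4. Pbr019103, of 12 exons on chromosome 9 (1539531 to 1555689, minus strand), had 5.47 FPKM with water and 0.249 with yeast, 21.9-fold lower with yeast (11.1 to 52.3). Its locus also holds another long-intron gene, and isoforms with up to 490693 bases of intron join the positions of both. That locus was at 228.1 FPKM with water and 223.9 with yeast.

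The remaining 2 were past 2-fold by a small margin. A gene of 19 exons on chromosome 17 (3659397 to 3672165, plus strand) had 20.5 FPKM with water and 45.9 with yeast, or 2.24-fold (2.04 to 2.46), while an isoform of 24 exons over the whole gene was at 27.9 and 17.6. A gene of 13 exons on chromosome 15 (41131543 to 41163173, plus strand), with 30257 bases of intron, was at 7.82 and 16.8 FPKM, or 2.15-fold (1.82 to 2.56). Its 3 isoforms of 3 exons each, together at 11.3% of the span, brought the locus to 58.5 FPKM with water and 36.1 with yeast, a log2 ratio of -0.68. In the authors' gene table, which divides by a single length per locus, the same gene was at 22.5 and 20.8 FPKM. The division of reads among overlapping transcripts of a locus was not examined, and counting intervals do not cover it.

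**Figure D5:**
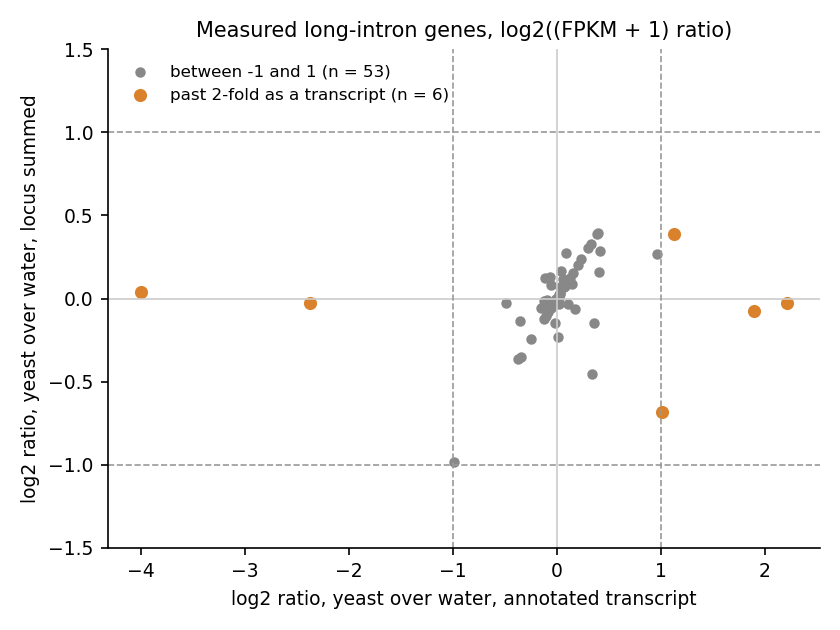
Log2 ratio (yeast over water, FPKM + 1) of the annotated transcript against that of the summed locus for the 59 measured long-intron genes, 1 point per gene, with dashed lines at -1 and 1. The 6 genes past 2-fold as transcripts (orange) lie between -0.68 and 0.39 as loci.

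As loci, few long-intron genes differed by 2-fold. On the log2 scale with 1 FPKM added, 0 of the 186 measured reached 1 and 0 reached -1, where 0.309% of 19414 annotated loci were higher and 0.278% lower, together 0.587%. That background is so low that a count of 0 among 186 does not set the long-intron genes apart. The median log2 ratio was 0.03, with quartiles at -0.06 and 0.14, and 95.7% lay within 0.5 of 0. The extremes were -0.98 and 0.65. On plain FPKM ratios, 0 were at least 2-fold higher and 1 at least 2-fold lower, against 0.896% and 0.809% of annotated loci. This gene, of 3 exons with 12269 bases of intron on chromosome 10 (4784120 to 4797552, minus strand), has no assembled isoform. It had 2.15 FPKM with water and 0.590 with yeast, 3.64-fold lower (1.81 to 7.16).

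Among the 27 genes at 5 FPKM or more as annotated, ratios other than those of the genes past 2-fold were small. The highest of them, at 1.28-fold, was the 19-exon gene on scaffold459.0 described above. A gene of 19 exons on chromosome 16 (7121884 to 7145553, minus strand), with 21441 bases of intron, had 13.5 FPKM with water and 16.1 with yeast, or 1.19-fold (1.06 to 1.34). In the lower direction, a gene of 3 exons on chromosome 3 (8305569 to 8317703, minus strand) had 6.64 FPKM with water and 5.002 with yeast, 1.33-fold lower with an interval that includes 1 (0.773 to 2.27). A gene of 17 exons on chromosome 11 (21534694 to 21552816, plus strand) had 12.96 FPKM with water and 11.8 with yeast, 1.10-fold lower (1.01 to 1.19). These intervals do not cover the spread between fruits.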

How the data were processed

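The authors deposited FPKM per gene for the series, and per library a transcript table with FPKM, mean coverage per base, position, exon number and length, per the file headers. Per the submitters' processing notes, the tools included HISAT2 and HTSeq 0.6.1, without their roles. Build, annotation release, assembly program and strand setting: not given in the sources used here. Coordinates are 1-based, as deposited. All annotated lengths are multiples of 3 and are given as coding lengths.

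Long-intron genes were found with pandas 2.3.3, and short-intron genes were weighted by exon number. Shares and medians are descriptions over genes, without a test. Read pairs were estimated as the deposited coverage times length over 300, since covered bases were most often 300 at weakly covered transcripts. Exact 95% intervals of ratios use these estimates (scipy 1.17.1). The intervals cover counting error only, since read pairs lacking molecular identifiers need not be separate molecules. The calculations were tested on simulated data. The members and lists were chosen with earlier results of these data known.

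Genes named by identifier are the extremes of the log2 ratio among measured members, 2 in each direction. Given by position are the 8 most abundant, the 6 with most intron, the 5 with most assembled isoforms and those with the highest and lowest ratios at 5 FPKM or more, of which some are summarised. The genes enclosing other loci and those of matching structure were chosen after their values were seen.

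Alternatives changed the pseudocount, the minimum FPKM, the level (locus sum, gene table, TPM), the intron thresholds and the call.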

Additional observations from a re-analysis of the deposited data

How the results depend on the processing

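The share measured depended on what was counted. It was 16.1% as annotated, 50.8% with FPKM summed over the locus and 48.9% in the authors' gene table, and the difference from the short-intron genes moved from -17.4 percentage points to -2.98 and -4.76. The median FPKM moved to 1.42 and 0.868, and its difference from -0.149 to -0.352 and -0.846. Both gave 0 genes higher and 0 lower. With a threshold of 5000 bases of intron, 26.8% were measured (difference -4.03 points), the median was 0.139 (difference -0.0413), 50.8% had an assembled isoform, and 14 were higher and 12 lower. At 20000 bases the differences were -22.2 points and -0.215, the median log2 ratio was 0.12, and 2 genes were higher and 0 lower. Against genes with under 1000 bases of intron, the difference in share was -11.4 points and that in isoforms 25.8 points, and the difference in median FPKM turned to 0.0114; the cause was not tested. With 2 to 14 exons, an alternative added after the data were seen, the differences were -25.1 points and -0.243. At a minimum of 5 FPKM, 7.38% were measured, with 2 higher and 1 lower.

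The counts of 4 higher and 2 lower genes became 0 and 1 at a pseudocount of 5, 1 and 2 at 4-fold, and 4 and 1 at loci with a single annotated gene. They became 5 and 3 at a pseudocount of 0.1, with TPM and, in an alternative added later, without a pseudocount, and 5 and 2 with no minimum FPKM. Requiring 20 read pairs per library, also added later, they were 3 and 0. Summed over the locus, the log2 ratio changed sign for Pbr034033 (-0.027), Pbr003862 (-0.077), Pbr032033 (0.042) and the gene on chromosome 15 (-0.68), and in the gene table for the last 3 of these (-0.056, 0.065 and -0.11). Of the recomputed summary values, 71 stayed close to those reported, 36 moved further and 1 changed sign. No paired analysis was possible because a treatment consists of 1 library, which also means that leaving a library out ends the comparison. Genes under 3 read pairs are at the limit of this depth.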

Other observations

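Signal in a single library was seen at 42 of the 366 long-intron genes as annotated, 14 of them above 0 only with water (3.83%) and 28 only with yeast (7.65%). The exon-weighted shares of short-intron genes were 3.601% and 3.78%, and those of all annotated genes 4.17% and 3.795%. The 2 enclosed loci with a log2 ratio below -1 lie on the opposite strand of genes on chromosome 6 and have 2 exons. The one at 6705985 to 6706279 was at 5.87 FPKM with water and 1.82 FPKM with yeast, from about 31 and 8 read pairs. The one at 4621300 to 4621788 was at 2.45 and 0.590 FPKM, from about 12 read pairs with water.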
